A study of Mus musculus with 6 samples.

Results

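*Agt*, *Ace*, *Agtr1a*, *Enpep*, *Ednra*, *Ednrb* and *Ece1* are genes of the renin-angiotensin and endothelin systems, and their counts were followed here in single cells sorted from mouse amygdala. They are 7 of the 32285 gene rows of the deposited matrices, taken by name over every cell barcode. Each was measured in astrocytes, defined as barcodes with at least 20 unique molecular identifiers (UMIs, single captured RNA molecules) of *Slc1a2* and *Slc1a3* together and at most 3 of *Vtn* and *Rgs5*, and in pericytes, defined by at least 10 UMIs of *Vtn* and *Rgs5* and at most 5 of *Slc1a2* and *Slc1a3*. Of 13546 barcodes in 3 libraries, 8757 were astrocytes and 2260 were pericytes by these rules.

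Angiotensinogen, the product of *Agt*, is the single precursor of the angiotensin peptides. Renin cuts it to angiotensin I, and angiotensin-converting enzyme (*Ace*) trims this to angiotensin II. Aminopeptidase A (*Enpep*) removes a residue from angiotensin II, and the angiotensin II type 1 receptor (*Agtr1a*) carries the main vascular signal of angiotensin II. In the brain, angiotensinogen is known as an astrocyte product. Endothelins are vasoactive peptides released by endothelin-converting enzyme 1 (*Ece1*) from precursors such as *Edn1*, and act on the receptors *Ednra*, known from the contractile cells of vessel walls, and *Ednrb*, known in the brain from astrocytes.

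The study asked which genes amygdala astrocytes express around fear conditioning and recall. The mice were young adults, male and C57BL/6N wildtype by the labels of these libraries (C57BL/6NCrSlc in the Methods, which name both sexes for the study as a whole). They were non-shocked (NoFC), fear conditioned (FC), conditioned and left without recall (NoFR), or conditioned and recalled (FR), with 4 mice in each group. Amygdalae were taken 90 min after the behaviour began and dissociated with papain. NoFR and FR mice had been conditioned on the day before, and NoFR mice stayed in their home cages in place of recall. NoFR mice thus differ from FC mice also in the time since conditioning. Inhibitors of transcription and translation (actinomycin D, triptolide and anisomycin) were present in all groups, and cells were sorted with an antibody against ACSA-2, the protein encoded by *Atp1b2*. Each mouse's cells carried a hashtag antibody before mice were pooled. Library 1 pooled 8 mice, 2 of each group, library 2 pooled 1 NoFC, 2 FC and 1 FR mice, and library 3 pooled 1 NoFC, 2 NoFR and 1 FR mice.

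The libraries held 5287, 3631 and 4628 barcodes. Astrocytes numbered 3557, 2503 and 2697, with medians of 9667, 10281 and 9832 UMIs per cell, and pericytes 880, 664 and 716, with medians of 4833, 5205.5 and 5028.5. The labels name the sorted cells astrocytes, yet 16.7% of barcodes were pericytes, in which *Atp1b2* was counted at 676 UMIs per 1000000 UMIs of the class (CPM), beside 814 CPM in astrocytes. By its Methods the study took pericytes out by *Pdgfrb* before its own analysis, whereas the counts used here still hold them. *Aqp4*, a marker of astrocytes, stood at 568 CPM in astrocytes and 5.31 CPM in pericytes, and *Abcc9*, a marker of brain pericytes, at 0.667 and 1677 CPM. In pericytes the endothelial markers *Cldn5*, *Pecam1* and *Ly6c1* stood at 5.22, 1.37 and 0.770 CPM, whereas *Flt1*, also on that marker list, stood at 131 CPM. The smooth muscle gene *Myh11* stood at 112 CPM. A further 101 barcodes passed the count thresholds of both classes and entered neither, and 18 barcode sequences occurred in more than 1 library, a pair of barcodes each.

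To place the genes on the genome, the 120 bases upstream of the RefSeq start (GRCm38.p6) are shown for the 4 members that differed most between astrocytes and pericytes among those with enough counts for a test. Capitals mark the letters TATAAA (the TATA box), GGGCGG (the GC box) or TTGGC (part of the site bound by nuclear factor I proteins), searched on both strands. All 4 lie on the reverse strand and are printed 5′ to 3′ towards the gene. *Agt* (ENSMUSG00000031980) spans chr8:124556534-124569706, and chr8:124569707-124569826 lies just before it. *Ednrb* (ENSMUSG00000022122) spans chr14:103814625-103844402, and its window, chr14:103843702-103843821, falls inside this span. *Enpep* (ENSMUSG00000028024) spans chr3:129269175-129332720 with its window at chr3:129332750-129332869, and *Ednra* (ENSMUSG00000031616) spans chr8:77663031-77724464 with its window at chr8:77724453-77724572.
Agt: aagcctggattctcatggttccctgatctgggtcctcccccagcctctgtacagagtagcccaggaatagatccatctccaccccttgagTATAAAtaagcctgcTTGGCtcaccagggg
Ednrb: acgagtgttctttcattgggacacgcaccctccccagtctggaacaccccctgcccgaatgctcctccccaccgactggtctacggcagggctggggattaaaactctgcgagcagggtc
Enpep: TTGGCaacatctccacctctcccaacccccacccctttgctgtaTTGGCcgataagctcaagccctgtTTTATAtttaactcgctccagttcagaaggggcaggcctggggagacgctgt
Ednra: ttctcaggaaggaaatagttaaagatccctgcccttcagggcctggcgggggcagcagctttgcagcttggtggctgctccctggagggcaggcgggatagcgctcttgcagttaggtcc

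In *Agt* TATAAA began 30 bases before the start, at position -30, with TTGGC at -15. In *Enpep* TATAAA was read from the other strand at -52 (printed as TTTATA) and TTGGC stood at -120 and -76. None of the 3 motifs lay in the shown bases of *Ednrb* or *Ednra*. Among 32851 RefSeq windows of 250 upstream bases, 12.4% held TATAAA, 32.7% GGGCGG and 41.5% TTGGC, so these matches are common by letters alone. The remaining genes are *Ece1* (ENSMUSG00000057530) at chr4:137862237-137965229 on the forward strand, *Ace* (ENSMUSG00000020681) at chr11:105967945-105989964 on the forward strand, and *Agtr1a* (ENSMUSG00000049115) at chr13:30336441-30382867 on the forward strand.

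*Agt*, the precursor of all angiotensin peptides, was an astrocyte transcript in these cells. Its level was 275, 300.4 and 316 CPM in the astrocytes of libraries 1, 2 and 3, a mean of 297 ± 20.4 CPM (SD, n = 3 libraries), and 3.62, 5.37 and 5.37 CPM in their pericytes, a mean of 4.79 ± 1.01 CPM. Every library had the astrocyte level far above the pericyte level. At least 1 *Agt* UMI was found in 65.6%, 71.2% and 67.8% of astrocytes and in 1.70%, 2.86% and 2.79% of pericytes, which were sequenced less deeply. With every cell thinned to 3000 UMIs, which left out 541 astrocytes and 157 pericytes, the shares were 41.3%, 45.9% and 44.9% in astrocytes and 1.56% on average in pericytes. UMI sums per library and class were compared with edgeR's quasi-likelihood test with the library as a replicate block, TMM normalization and Benjamini-Hochberg adjustment over 15361 genes, in which *Agt* was 72.6-fold higher in astrocytes (log2 fold change 6.18, SE 0.104, adjusted p = 1.7e-27). At an adjusted p of 0.05, 42.8% of the tested genes were called higher in astrocytes and 36.9% higher in pericytes, so a call by itself is common here. Of the 7 genes, 5 passed the filter on low counts and all 5 were called, *Agt* and *Ednrb* higher in astrocytes and *Enpep*, *Ednra* and *Ece1* higher in pericytes. The libraries are pools of mice, so these p-values measure the spread between 3 pools.

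**Figure D1:**
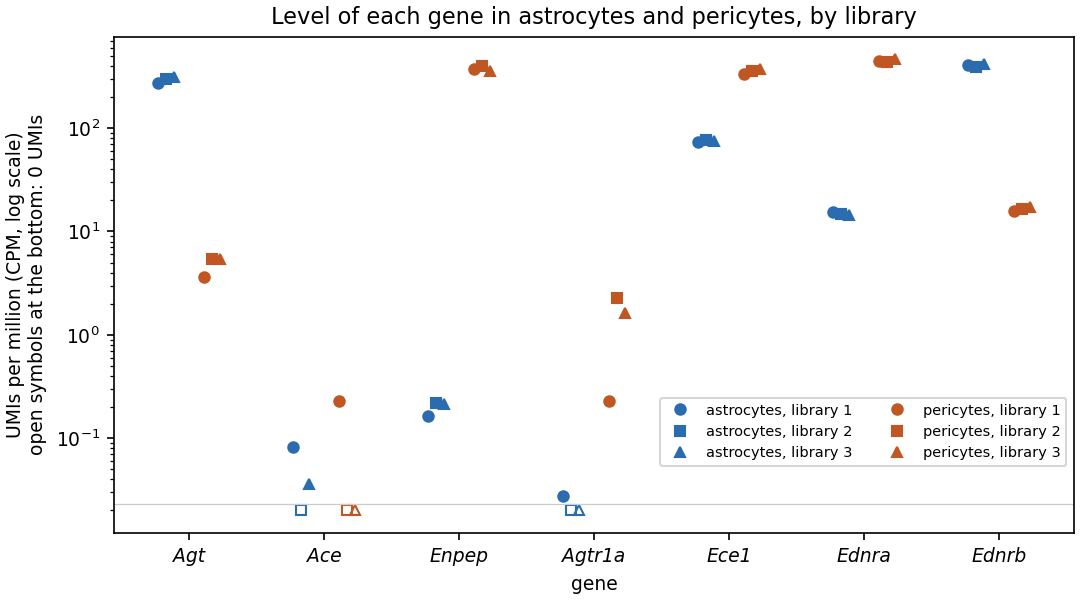
Level of each of the 7 genes in CPM (log axis) in astrocytes (blue) and pericytes (orange) of libraries 1, 2 and 3 (circle, square, triangle), with open symbols at the bottom for 0 UMIs. *Agt* and *Ednrb* sit above in astrocytes, *Enpep*, *Ece1* and *Ednra* in pericytes, and *Ace* and *Agtr1a* stay below 3 CPM in both classes.

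*Agt* was spread unevenly over astrocytes. In libraries 1, 2 and 3, 34.4%, 28.8% and 32.2% of astrocytes had no *Agt* UMI, beside 5.94%, 3.85% and 3.85% under a Poisson distribution of the same mean. The median astrocyte had 1, 2 and 2 *Agt* UMIs, the 90th percentile was 8, 9 and 9, and the highest cell had 29, 30 and 37. The 10% of astrocytes with most *Agt* held 45.0%, 43.1% and 43.9% of its UMIs. In a count with no spread beyond sampling the variance equals the mean. For *Agt* the ratio of variance to mean was 5.90, 5.97 and 6.46 as deposited, which includes differences in depth between cells. At 3000 UMIs per cell the ratio was 2.78, 2.65 and 2.85, and 58.7%, 54.1% and 55.1% of cells had no *Agt* UMI. Among genes whose mean lay between 0.5 and 2 times that of *Agt* at this depth, its ratio ranked 7 of 863, 9 of 720 and 9 of 715, against medians of 1.26, 1.29 and 1.30. The share of cells without a UMI was ordinary among these genes, with medians of 55.1%, 51.5% and 51.4%. It was larger than that of *Agt* for 306, 298 and 249 of them. *Ednrb*, at a somewhat higher mean in the same cells, had ratios of 1.39, 1.44 and 1.44 and ranked 212 of 542, 173 of 562 and 202 of 544. Of the genes near its own mean, 418, 422 and 403 had a larger share of cells without a UMI than *Ednrb*. In pericytes *Enpep*, *Ednra* and *Ece1* had ratios between 1.11 and 1.45.

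**Figure D2:**
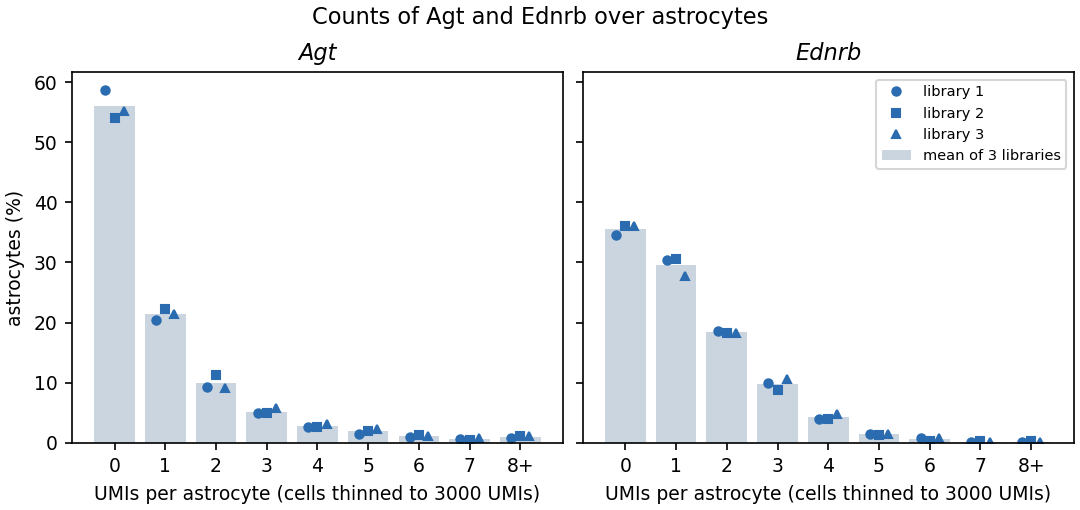
Share of astrocytes (percent) with each number of *Agt* (left) or *Ednrb* (right) UMIs after thinning each cell to 3000 UMIs, with bars for the mean of 3 libraries and symbols for the libraries. *Agt* is absent from more than 54% of cells in each library and has a longer tail, whereas *Ednrb* is absent from 34.5% to 36.1%. The mean of *Agt* was also lower, at 0.914, 1.01 and 1.05 UMIs by library, beside 1.28, 1.23 and 1.29 for *Ednrb*.

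The genes whose counts followed *Agt* most closely from astrocyte to astrocyte were *Sparc*, *Gria1*, *Itih3*, *Sparcl1* and *Nnat*, of 5937 genes found in at least 20% of astrocytes of every library. Pearson's r on log counts at 3000 UMIs was 0.41, 0.39 and 0.43 for *Sparc*, which encodes a secreted matrix protein. It was 0.37, 0.35 and 0.39 for *Gria1*, an AMPA receptor subunit, and 0.33, 0.34 and 0.34 for *Itih3*, an inter-alpha-trypsin inhibitor heavy chain. These values describe cells of the same 3 libraries, and cells are not independent replicates. Of regional astrocyte genes, *Slc6a11*, a GABA transporter, ranked 8 (r = 0.30, 0.23 and 0.32), and the telencephalic genes *Lhx2* and *Emx2* had r between -0.14 and -0.05. *Mfge8* ranked 98. *Nkx6-2*, a homeobox transcription factor gene found in under 20% of astrocytes, had r of 0.36, 0.36 and 0.39, and *Irx5* had 0.02, 0.01 and 0.04.

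Mean *Agt* was also taken in astrocytes with and without a UMI of genes with positive r. The higher mean in cells with a UMI restates that r in the same cells and is no further support. *Irx5* and the telencephalic genes were not split in this way. The 392, 246 and 276 astrocytes with a UMI of *Nkx6-2* at 3000 UMIs had means of 2.45, 2.80 and 2.99 *Agt* UMIs, beside 0.710, 0.806 and 0.807 in those without. For *Gria1* the means were 2.12, 2.26 and 2.41 with a UMI and 0.596, 0.714 and 0.631 without. In each library *Agt* had a UMI in 74.2%, 82.1% and 83.0% of *Nkx6-2* cells and in 36.9%, 41.7% and 40.1% of the others. *Agt* was therefore neither restricted to the *Nkx6-2* cells nor found in all of them at this depth.

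**Figure D3:**
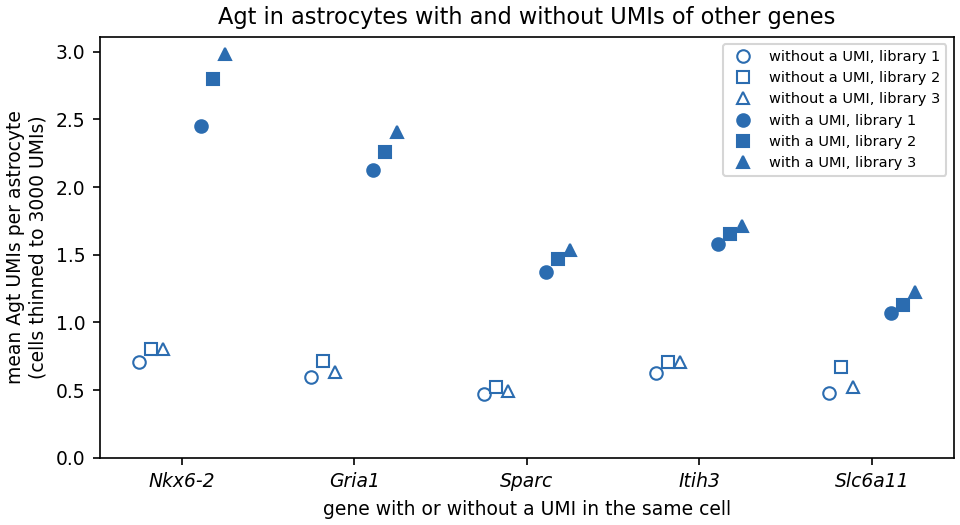
Mean *Agt* UMIs per astrocyte (cells thinned to 3000 UMIs) in cells with (filled) and without (open) a UMI of *Nkx6-2*, *Gria1*, *Sparc*, *Itih3* or *Slc6a11*, with a symbol for each of 3 libraries. All filled symbols lie above the open ones of the same gene, with the widest gap at *Nkx6-2*. The genes shown had positive r with *Agt* in the same cells, so this direction was set by their choice.

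Of the enzymes, *Ace* was nearly undetected in both classes. Astrocytes had 3, 0 and 1 *Ace* UMIs in libraries 1, 2 and 3, and pericytes had 1, 0 and 0. Summed over libraries this was 0.0437 CPM in astrocytes (95% exact Poisson interval 0.0119 to 0.112) and 0.0856 CPM in pericytes (0.00217 to 0.477), and such intervals cover counting error only. A difference between the classes was not detectable at this depth. All barcodes together held 34 *Ace* UMIs, of which 29 came from 3 barcodes outside both classes, 1 in each library, with 13, 2 and 14 *Ace* UMIs. Those 3 barcodes had no *Cldn5* or *Pecam1* UMI and had 31, 183 and 37 UMIs of *Ptgds*, which encodes a prostaglandin D synthase, and 21, 28 and 38 of *Igf2*, a growth factor gene.

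*Enpep*, aminopeptidase A, was a pericyte transcript. Its level was 373, 398 and 358 CPM in pericytes (mean 376 ± 20.3 CPM, SD, n = 3 libraries) and 0.165, 0.221 and 0.216 CPM in astrocytes, from 6 UMIs in each library. The lowest pericyte library stood above 350 CPM and no astrocyte library reached 1 CPM. *Enpep* was found in 76.2%, 81.6% and 76.3% of pericytes, in 64.0% on average at 3000 UMIs per cell, and in 17 of 8757 astrocytes (0.194%, 95% Wilson interval 0.121% to 0.311%). The fold was 1591 in edgeR's quasi-likelihood test (log2 fold change -10.64 for astrocytes over pericytes, SE 0.101, adjusted p = 1.3e-32). Within pericytes its counts were close to evenly spread, with a ratio of variance to mean of 1.20, 1.11 and 1.25 at 3000 UMIs.

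*Ece1*, the endothelin-converting enzyme, was present in both classes. It was counted at 337, 358 and 371 CPM in pericytes (355 ± 17.1 CPM, SD, n = 3 libraries) and at 74.3, 76.1 and 75.1 CPM in astrocytes (75.2 ± 0.919 CPM). The groups did not overlap, and *Ece1* was 4.07-fold higher in pericytes by edgeR's quasi-likelihood test (log2 fold change -2.03, SE 0.0494, adjusted p = 9.1e-24). A UMI of *Ece1* was found in 73.5%, 76.2% and 75.1% of pericytes and in 46.9%, 49.0% and 48.2% of the deeper astrocytes. At 3000 UMIs per cell these shares were 60.6% and 20.3% on average.

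Of the receptors, *Agtr1a* was rare. Astrocytes held 1, 0 and 0 *Agtr1a* UMIs and pericytes 1, 8 and 6, the latter in 12 of 2260 cells (0.531%, 95% Wilson interval 0.304% to 0.926%). From 15 and 1 UMIs the ratio of pericytes to astrocytes was 117, with a counting interval of 18.1 to 4942. A single pericyte of library 2 held 4 of these UMIs. *Agtr1a* failed the filter on low counts, and in a fit with no filter its log2 fold change was -5.77 (SE 1.29, edgeR quasi-likelihood adjusted p = 2.1e-05), while that of *Ace* was -0.62 (adjusted p = 0.83). The paralog *Agtr1b* had 2 UMIs in astrocytes and 31 in pericytes, a ratio of 121 (30.9 to 1046). The sources used here do not say how reads shared by such paralogs were counted, so the split between them is uncertain.

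The endothelin receptors were divided between the classes. *Ednra*, the endothelin receptor type A gene, was counted at 443, 438 and 465 CPM in pericytes (448 ± 14.2 CPM, SD, n = 3 libraries) and at 15.4, 14.8 and 14.5 CPM in astrocytes (14.9 ± 0.419 CPM). *Ednrb*, the type B receptor gene, was counted at 408, 394 and 420 CPM in astrocytes (408 ± 12.9 CPM) and at 15.6, 16.7 and 17.4 CPM in pericytes (16.6 ± 0.917 CPM). In each of 3 libraries either receptor was low in the class where the other was high. *Ednra* was 25.9-fold higher in pericytes (log2 fold change -4.70, SE 0.0573, adjusted p = 1.3e-30) and *Ednrb* 28.5-fold higher in astrocytes (log2 fold change 4.83, SE 0.0808, adjusted p = 1.3e-27) by edgeR's quasi-likelihood test.

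Most cells of the higher class carried their receptor transcript. *Ednra* had a UMI in 79.8%, 80.3% and 83.2% of pericytes and in 12.1%, 12.1% and 11.6% of astrocytes, and at 3000 UMIs per cell in 67.9% and 4.19% on average. *Ednrb* had one in 86.4%, 86.3% and 84.4% of astrocytes and in 4.89%, 5.87% and 6.28% of pericytes, and at 3000 UMIs in 64.4% and 3.66%. Followed from cell to cell, *Ednrb* came closest to *Apoe* (r = 0.32, 0.36 and 0.34), *Sparcl1*, *Gja1*, *Cst3* and *Cd81* in astrocytes. In pericytes, where 3899 genes were compared, the closest genes had low r. They were *Ano1*, *Dlc1*, *Dgkb*, *Fry* and *Gucy1a2* for *Ednra* (0.16 at most), *Serpini1*, *Rgs5*, *Ackr3*, *Cd200* and *Car4* for *Enpep* (0.19 at most) and, among others, *Ptn*, *Slc6a13*, *Atp13a5* and *Plxdc2* for *Ece1* (0.14 at most).

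In droplet data, RNA free in the suspension can add UMIs to any cell, and its part in the values here was not tested. The level of each gene in its lower class is given beside that of class markers. *Agt* in pericytes was 1.60% of its astrocyte level (1.32%, 1.79% and 1.70% by library), from 16, 19 and 20 UMIs. It lay above the astrocyte markers *Aldoc* (1.24%), *Aqp4* (0.934%), *Gja1* (0.930%) and *Sox9* (0.890%) in each library. The gap was small over *Aldoc* in library 3 (1.66%) and over *Sox9* in library 1 (1.22%). In the pericytes of library 1 the counting interval of *Agt* was wide, 2.07 to 5.88 CPM around 3.62 CPM. *Ednrb* in pericytes was 4.05% of its astrocyte level (3.82%, 4.23% and 4.15%), further above these 4 markers. In pericytes with no UMI of *Slc1a2* or *Slc1a3*, *Agt* stood at 1.73% and *Ednrb* at 3.60%.

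In the other direction the values fell into a wide range. *Enpep* in astrocytes was 0.0524% of its pericyte level, beside 0.0510% for *Higd1b*, 0.0469% for *Kcnj8* and 0.0398% for *Abcc9*, which are pericyte markers. *Ednra* in astrocytes was 3.34% (3.47%, 3.39% and 3.13%), beside 4.13% for *Pdgfrb*, 3.85% for *Notch3* and 1.48% for *Atp13a5*. In astrocytes with no UMI of *Vtn* or *Rgs5*, which were 8006 of the 8757, the value for *Ednra* was 3.31%. *Ece1* stood at 21.2%. In each library the values of *Ednra* and *Ece1* lay above that of *Enpep*, and the cause of this was not tested.

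**Figure D4:**
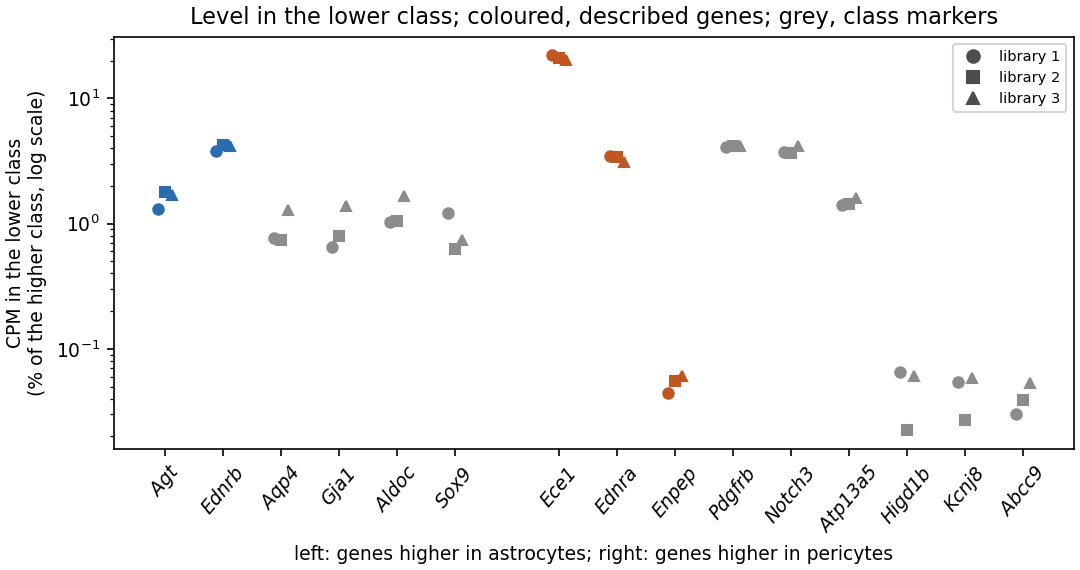
Level (CPM) in the lower class as a percent of the level in the higher class (log axis), for genes higher in astrocytes (left) and in pericytes (right), with a symbol per library, the described genes coloured and class markers grey. *Enpep* lies at 0.0524% with *Higd1b*, *Kcnj8* and *Abcc9*, while *Ednra* lies at 3.34% and *Ece1* at 21.2%.

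The other genes of the renin-angiotensin system were counted as a list of 19, of which 13 passed the filter on low counts. In edgeR's quasi-likelihood test 5 were higher in astrocytes, 6 were higher in pericytes and 2 (*Atp6ap2* and *Thop1*) were not called, with a median log2 fold change of -0.04 beside 0.10 over all tested genes. The shares are close to those of all genes (42.8% and 36.9%), and with library sizes alone in place of TMM the median of all genes was -0.12. Among the pericyte genes was *Anpep*, an aminopeptidase that acts after *Enpep*. It stood at 152, 150.1 and 154 CPM in pericytes, with 7 UMIs in astrocytes (log2 fold change -10.62). *Agtr1b* (-6.30), *Prcp* (-1.38), *Agtrap* (-0.69) and *Prep* (-0.47) were also higher in pericytes.

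Higher in astrocytes were *Nln* (neurolysin, log2 fold change 1.57), *Nr3c2* (the mineralocorticoid receptor, 1.48), *Lnpep* (0.41), *Ctsd* (0.37) and *Rnpep* (0.26). The last of these differed little in plain CPM, with means of 35.2 in astrocytes and 34.3 in pericytes. *Ren1*, the renin gene, had 5 UMIs in astrocytes, all in library 3, and 0 in pericytes. *Agtr2*, *Cma1* and *Ctsg* had no UMI in either class, and *Mas1* and *Mme* were below the filter. Of 4 endothelin genes, *Ece2* was higher in pericytes (-0.60). The ligand gene *Edn1* had 42 UMIs in 35 astrocytes and 0 in pericytes, at least 1.79-fold higher in astrocytes against a floor of 3 UMIs over the pericytes of all libraries. *Edn2* had no UMI, and the 16 pericyte UMIs of *Edn3* came from 2 cells.

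The pericyte genes were found in overlapping sets of cells. At 3000 UMIs per cell, 43.6%, 44.7% and 42.9% of pericytes had UMIs of both *Enpep* and *Ednra*, beside 42.4%, 43.9% and 44.1% from the product of their separate shares. Either transcript was found in 86.7%, 87.8% and 90.2%. *Enpep* and *Anpep* were found together in 20.7%, 24.8% and 23.1%, beside products of 21.2%, 23.8% and 21.5%. Over cells r between *Enpep*, *Ednra* and *Ece1* lay between -0.06 and 0.07. In astrocytes *Agt* and *Ednrb* were found together in 30.5%, 33.0% and 31.9%, beside products of 27.0%, 29.4% and 28.7%, with r of 0.22, 0.21 and 0.26.

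A few pericyte-class cells carried contractile genes, which mark smooth muscle. Of the 2260 cells, 16 had at least 10 UMIs of *Acta2* and *Tagln* (8, 4 and 4 by library), too few for a test, and 2222 had at most 1. *Ednra* stood at 683 CPM in the 16 cells and 444 CPM in the others (ratio 1.54, counting interval 1.23 to 1.90). Such intervals take no account of UMIs bunched in single cells, and 1 cell held 18 of the 88 *Ednra* UMIs. *Ece1* had 2 UMIs in 1 of the 16 cells, 15.5 CPM beside 360 CPM (others to contractile 23.2, interval 6.41 to 191). *Enpep* stood at 233 and 377 CPM (others to contractile 1.62, interval 1.13 to 2.40). By library it was 205, 475 and 152 CPM in contractile cells, beside 373, 399.7 and 359 CPM, so library 2 went the other way. Of the 10 contractile UMIs of library 2, 8 came from 1 cell. *Agt* and *Ednrb* had no UMI in the 16 cells, and a floor of 3 UMIs over these cells is 23.3 CPM.

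The genes were also counted in further sets of barcodes. Most barcodes outside both classes, 2417 (17.8% of all), fell in none of the sets below. They were shallow, with a median of 748 UMIs. Their median mitochondrial share was 28.2%, 20.5% and 2.10% in libraries 1, 2 and 3 (15.1% over all). *Agt* stood at 226, 207 and 354 CPM by library (280 over all), *Ednra* at 98.4 and *Enpep* at 61.5 CPM. The 101 barcodes with many UMIs of both classes had *Agt* at 197, *Ednrb* at 271, *Enpep* at 116, *Ednra* at 156 and *Ece1* at 199 CPM, so they carried the transcripts of both. The progenitor, *Dcn* and endothelial sets that follow were defined by their own genes alone, whatever the class of the barcode. Most barcodes in these sets were also counted as astrocytes, as pericytes or among those of both classes. At least 10 UMIs of the progenitor genes *Top2a*, *Mki67* and *Sox11* were found in 54 barcodes. Of these, 81.5% had *Ednrb* (95% Wilson interval 69.2% to 89.6%), at 166 CPM, while *Agt* had 3 UMIs in them. *Ece1* stood at 364 CPM in 13 barcodes with at least 10 UMIs of *Dcn*, a fibroblast gene, and was found in 11 of them. The rule for endothelial transcripts (at least 5 UMIs of *Cldn5*, *Pecam1* and *Ly6c1*) was met by 8 barcodes, with 11 *Ece1* UMIs in 6 of them, so the genes were not measured in endothelium in any depth.

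To ask whether the genes differed with behaviour, cells were given to mice by hashtag, which left 1877 astrocytes (45 to 228 per mouse) and 960 pericytes (38 to 133 per mouse). Hashtags were weak on astrocytes: the strongest of a cell had 4 UMIs at the median and the runner-up 2, beside 18 and 3 on pericytes. *Agt* in astrocytes was 170, 285, 312 and 321 CPM in NoFC mice (272 ± 69.6, SD, n = 4), 240, 259, 289 and 325 in FC mice (278 ± 37.1), 283, 354, 394 and 447 in NoFR mice (369 ± 69.2) and 242, 309, 319 and 345 in FR mice (304 ± 43.8), with TMM normalization. The groups overlapped in every pair. In exact permutation tests over 12 comparisons p was 0.0857 for NoFR against FC, 0.114 for NoFR against NoFC, 0.171 for FR against NoFR and 0.857 for FC against NoFC. Benjamini-Hochberg adjustment gave 0.514 or more, and 4 mice against 4 cannot go below 0.0286. These tests took no account of library. FC mice lay in libraries 1 and 2 and NoFR mice in libraries 1 and 3, so differences between libraries enter these p-values.

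In edgeR's quasi-likelihood test with the library as a covariate, 0 of 10098 genes were called in any of the 6 pairs in astrocytes (0.0% of tests), with 331 to 631 genes per pair at an unadjusted p under 0.05. DESeq2 likewise called 0, with 139 to 398 at that unadjusted p. The edgeR log2 fold change of *Agt* was 0.63 for NoFR over FC (SE 0.147, unadjusted p = 0.00013, adjusted p = 0.64) and 0.55 for NoFR over NoFC (SE 0.139, unadjusted p = 0.00035, adjusted p = 0.41). It was -0.37 for FR over NoFR (SE 0.129, unadjusted p = 0.0070) and -0.08 for FC over NoFC (SE 0.136, unadjusted p = 0.55), with adjusted p = 1.00 for both. For FR over FC it was 0.26 (SE 0.132, unadjusted p = 0.055) and for FR over NoFC 0.18 (SE 0.131, unadjusted p = 0.17), neither called. *Ednrb*, *Ednra* and *Ece1*, which also passed the filter in astrocytes, had 1 unadjusted p under 0.05 among them, that of *Ednrb* for NoFR over NoFC (0.25, SE 0.101, unadjusted p = 0.019). Within libraries the log2 ratio of *Agt* in NoFR to NoFC mice was 0.47 in library 1 and 0.90 in library 3. The latter rests on 1 NoFC mouse at 170 CPM, the lowest *Agt* level of all mice. The ratio of NoFR to FC was 0.75 in library 1. That of FR to NoFR was -0.61 in library 1 and 0.12 in library 3, which held 1 FR mouse, so it changed direction. FR replicate 4 belongs to neither NoFR over NoFC nor NoFR over FC. Leaving it out brought *Agt* under the threshold in edgeR in both pairs (0.66, adjusted p = 0.022, and 0.80, adjusted p = 0.0034). How many of all genes were called in that fit is not reported here. A fit with no filter on low counts also brought *Agt* under the threshold in both pairs. Of its 20382 genes, 43 were called higher and 23 lower for NoFR over NoFC, and 15 and 5 for NoFR over FC. Genes whose counts followed *Agt* over cells are given for NoFC, FC, NoFR and FR mice in this order (mean ± SD, n = 4). *Gria1* averaged 149.9 ± 41.3, 150.2 ± 45.3, 252 ± 97.5 and 182 ± 78.6 CPM. *Nkx6-2* averaged 55.2 ± 21.5, 41.9 ± 16.5, 67.7 ± 27.5 and 51.2 ± 14.3 CPM. *Itih3* averaged 129 ± 28.0, 146 ± 11.4, 177 ± 29.6 and 161 ± 41.6 CPM. *Nnat* averaged 571 ± 72.2, 613 ± 48.2, 696 ± 81.3 and 615 ± 44.6 CPM. *Slc6a11* averaged 520 ± 60.6, 555 ± 9.71, 569 ± 68.3 and 539 ± 25.9 CPM. *Sparc*, the closest to *Agt* over cells, averaged 318 ± 58.3, 335 ± 39.9, 343 ± 62.0 and 357 ± 35.0 CPM. *Sparcl1* averaged 4145 ± 234, 4614 ± 290, 4402 ± 473 and 4527 ± 179 CPM. The highest mean was in FR mice for *Sparc* and in FC mice for *Sparcl1*. Their part in the *Agt* values was not tested.

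In NoFC, FC, NoFR and FR mice, in this order, *Ednrb* in astrocytes averaged 361 ± 47.6, 415 ± 29.9, 426 ± 42.7 and 415 ± 18.7 CPM (SD, n = 4 each). FC against NoFC had an exact permutation p of 0.143 and FR against NoFR one of 0.771. In pericytes *Ednra* was 396 ± 62.9, 444 ± 72.3, 458 ± 81.8 and 448 ± 27.3 CPM in the same order (exact permutation p = 0.371 and 0.886). *Enpep* was 377 ± 41.2, 400.3 ± 33.4, 360 ± 15.8 and 348 ± 41.0 CPM (exact permutation p = 0.371 and 0.629). *Ece1* in pericytes averaged 300.4, 339, 375 and 341 CPM, with an edgeR quasi-likelihood log2 fold change of 0.39 for NoFR over NoFC (SE 0.153, adjusted p = 0.35). In pericytes 96 of 38202 tests over the 6 pairs were called (0.251%), and 0 of them were of *Enpep*, *Ednra* or *Ece1*, the 3 of the 7 genes that passed the filter there. The unadjusted p of this *Ece1* comparison, 0.014, was the only one of these 3 genes under 0.05, and DESeq2 called 0 of them as well.

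**Figure D5:**
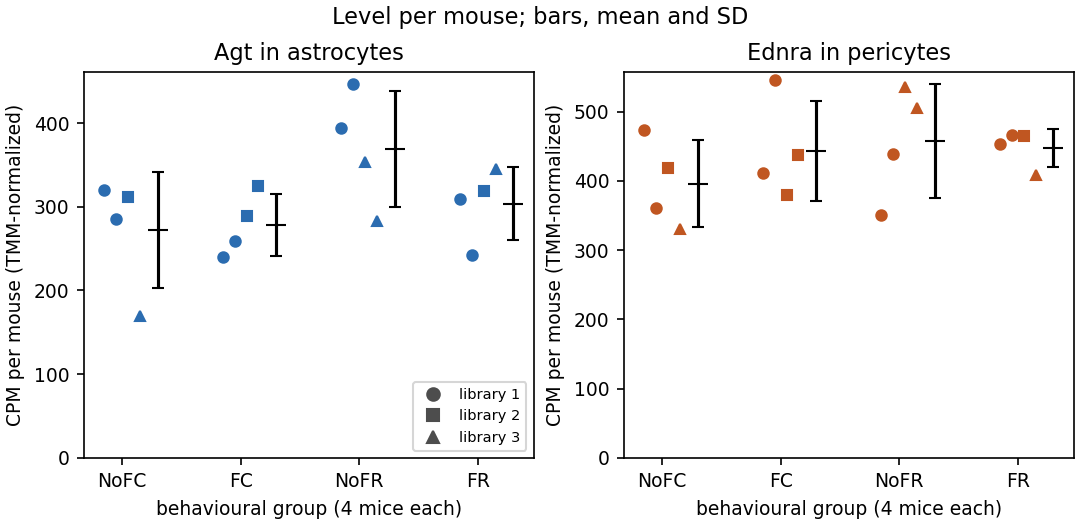
Level per mouse (TMM-normalized CPM, axes from 0) of *Agt* in astrocytes and *Ednra* in pericytes in the 4 behavioural groups, with a symbol for the library of each mouse and bars for the mean and SD of 4 mice. The groups overlap in both panels, and NoFR holds the highest *Agt* mouse at 447 CPM.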

How the data were processed

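Single-cell libraries were made from ACSA-2 sorted amygdala cells. Per the matrix headers the authors used Cell Ranger 7.0.0, whereas the submitters' processing notes and the Methods name 3.0, with mm10 and GENCODE vM23/Ensembl 98. The intron and strand settings were not given in the sources used here. For each barcode the authors deposited raw counts (UMIs) of genes and of hashtags, unnormalized, and these counts were used as deposited. Gene positions were read from GENCODE vM21 on the same assembly, with all 7 gene identifiers matching, and upstream sequences from RefSeq GRCm38.p6. The 7 genes, the class rules, the gene lists and the tests were chosen with earlier results of these data known.

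UMIs were summed per library and class (27145742 to 36469481 for astrocytes, 3538589 to 4417539 for pericytes) and given as CPM. The sums were tested with edgeR 4.0.16 in R 4.3.3 (quasi-likelihood test, TMM, filterByExpr, library as a block, Benjamini-Hochberg adjustment, threshold 0.05), leaving out *Slc1a2*, *Slc1a3*, *Vtn* and *Rgs5*, which define the classes. The library number pairs astrocytes and pericytes because both come from the same pooled mice. All barcodes entered this comparison, hashtag doublets included. Shares of cells with a UMI were also computed at 3000 UMIs per cell (seed 11). Correlations used log(1 + count) at that depth, and the genes named were the 5 with the highest r in the library where r was lowest. Named pathway genes are those called, with levels for the highest. Values of a few genes of these lists are not reported here.

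For behaviour, barcodes with 100 genes or more and a mitochondrial share under 6% were demultiplexed with HTODemux (Seurat 5.3.0, quantile 0.99). The Methods word the mitochondrial filter as an exclusion below this value, and it was read here as an upper limit. Hashtags with under 10 UMIs in every cell of a library were left out. Of 11360 barcodes, 4370 were singlets, 2032 doublets and 4958 negative, and no other doublet caller was run. UMIs were summed for mice with at least 10 cells of a class, for 533460 to 2540787 astrocyte and 179205 to 723173 pericyte UMIs per mouse, and tested in edgeR with the library as a covariate. Single genes were compared by 2-sided exact permutation tests without regard to library, in 8 planned comparisons and 4 of *Agt* added after seeing the data. DESeq2 1.42.0 was an alternative. In simulated data with 200 genes changed 2-fold, edgeR recovered 85.2% between classes (15199 genes) and 39.6% between FC and NoFC mice in astrocytes (10105 genes).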

Additional observations from a re-analysis of the deposited data

Results flagged for a closer look

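Among 32 sets of 4 mice (a gene in a class and group), 3 had a highest mouse whose gap to the next exceeded 0.829 of the range of the 4, which chance gives in about 1 of 20 sets. *Ednrb* in the pericytes of a NoFR mouse was 30.5 CPM, beside 4.21, 5.49 and 8.06 CPM in the others, from 9 UMIs beside 1, 1 and 2. *Ece1* was 397 CPM in the pericytes of an FR mouse, beside 318, 319 and 330 CPM, and 86.0 CPM in the astrocytes of an FC mouse, beside 71.5, 72.0 and 72.4 CPM. No cause was tested for these values.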

How the results depend on the processing

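Between astrocytes and pericytes, the 5 called genes kept their direction and call under the other normalizations, DESeq2, no filter, no replicate block, the stricter classes, filtered barcodes, hashtag singlets, thinned cells and each library left out. Without the replicate block 6612 genes were called higher in astrocytes and 5683 in pericytes, beside 6569 and 5661 with it. With no filter the median log2 fold change of all genes was 0.53 (0.10 with it), and *Agtr1a* was also called. Leaving out each library gave 6134 to 6360 and 5222 to 5386 called genes, and log2 fold changes of 6.06 to 6.25 for *Agt*, -10.72 to -10.48 for *Enpep*, -4.72 to -4.65 for *Ednra*, 4.80 to 4.86 for *Ednrb* and -2.05 to -1.99 for *Ece1*.

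Between behavioural groups, calls depended on the setting in astrocytes. The main fit called 0 of 10098 genes in each pair. With no filter, of 20382 genes, 43 were called higher and 23 lower for NoFR over NoFC, and 15 and 5 for NoFR over FC. With strict hashtag calls, of 3025 genes, 5 were called higher and 4 lower for NoFR over FC, and 14 and 17 for FR over FC. *Agt* was called in 2 pairs with no filter (NoFR over NoFC 0.55, edgeR adjusted p = 0.00028, and NoFR over FC 0.62, adjusted p = 0.00014). It was called in the same 2 pairs without FR replicate 4, a mouse of neither pair. The number of all genes called in that fit is not reported here. With strict hashtag calls *Agt* was called in 2 pairs (NoFR over FC 1.38, FR over FC 2.23, edgeR adjusted p = 3.9e-05 and 0.0088). These strict calls left no NoFC mouse with 10 astrocytes, so pairs with NoFC could not be fitted, and kept 7 mice. Of the 2 FR mice, FR replicate 3 was the only kept mouse of library 2 and is absorbed by the library term, so the FR values under strict calls rest on FR replicate 4 (12 astrocytes), which shares library 3 with NoFR replicate 3 (10 astrocytes) alone. Leaving out each mouse gave 0 to 2 calls of the 7 genes in astrocytes and 0 in pericytes. Directions turned with HTODemux at 0.95 for *Agt* in FC over NoFC (0.23) and with strict calls for *Agt* in FR over NoFR (0.85) and *Enpep* in FC over NoFC (-0.043). The causes were not tested.

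With each mouse left out, the fitted log2 fold changes ranged for *Agt* from -0.19 to 0.0079 (FC over NoFC), -0.69 to -0.28 (FR over NoFR), 0.35 to 0.66 (NoFR over NoFC) and 0.54 to 0.80 (NoFR over FC), for *Ednra* from -0.19 to 0.082 (FR over NoFR) and for *Enpep* from -0.0068 to 0.14 (FC over NoFC). Log2 ratios of group means ranged for *Agt* from -0.14 to 0.12 (FC over NoFC), -0.39 to -0.18 (FR over NoFR), 0.27 to 0.55 (NoFR over NoFC), -0.010 to 0.25 (FR over NoFC), 0.30 to 0.52 (NoFR over FC) and 0.059 to 0.22 (FR over FC), for *Ednrb* from 0.14 to 0.27 (FC over NoFC) and -0.095 to 0.024 (FR over NoFR), for *Ednra* from 0.049 to 0.26 and -0.14 to 0.053, and for *Enpep* from 0.035 to 0.16 and -0.14 to -0.0082.

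The mean share of astrocytes with no *Agt* UMI, 31.8% over libraries, was 56.0% at 3000 UMIs and 28.5% in filtered barcodes, and 30.5% to 33.3% with each library left out. The ratio of variance to mean was 2.76 at 3000 UMIs, and 5.93 to 6.21 with each library left out. Contractile cells numbered under 20 in each library, so their planned fits were not run. Genes of few UMIs, *Ace*, *Agtr1a* and the endothelin ligands, are limited by depth, and values per mouse rest on weak astrocyte hashtags.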
